A study of Mus musculus with 12 samples.

Results

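The genes described here are 9 mouse genes of arginine, nitric oxide and polyamine metabolism, chosen by name and matched by symbol to the Ensembl rows of a whole-lung read count table. All 9 were found among the 54532 genes of the table, and all 9 were among the 17473 genes with enough counts to be tested. They are Slc7a2 (an arginine transporter), Arg1 and Arg2 (arginases), Ass1 (argininosuccinate synthase), Nos2 and Nos3 (nitric oxide synthases), Odc1 (ornithine decarboxylase), Srm (spermidine synthase) and Smox (spermine oxidase). Lung poly(A) RNA was sequenced in 12 libraries, 3 in each of 4 groups. CKO_CRE lungs came from Cc10-Cre;Rhoafl/fl mice given a treatment labelled CRE, and WT_CRE lungs from Cc10-Cre mice given the same treatment. CKO_PBS lungs came from Cc10-Cre;Rhoafl/fl mice given PBS, and WT_PBS lungs from Cc10-Cre mice given PBS. CRE is written here as in the labels, which give neither its full name nor an age, dose or time, and is not the Cre recombinase. All 4 groups carried the Cc10-Cre transgene, so WT, labelled RhoAWT, and CKO, labelled RhoACKO, refer to the Rhoa alleles alone. Cc10, the product of Scgb1a1, is made by club cells of the airway lining, and Rhoa encodes a small GTPase. The deletion would be limited to Cc10-expressing cells, whereas whole lung was sequenced. The labels put all libraries in batch 1 and do not say that replicates came from separate animals, so p-values measure the spread between these libraries.

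Arginine enters cells through cationic amino acid transporters and is then shared by competing enzymes. Arginases split it into urea and ornithine, nitric oxide synthases turn it into nitric oxide and citrulline, and Ass1 begins the route that rebuilds arginine from citrulline. Ornithine feeds polyamine synthesis, in which Odc1 makes putrescine and Srm makes spermidine, and Smox oxidises spermine back to spermidine. In mouse lung with type 2 inflammation, Arg1 is well known from macrophages and from group 2 innate lymphoid cells, Nos2 as the inducible synthase of leukocytes and epithelium, and Nos3 as the synthase of endothelium.

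Promoter sequence, from 250 bases before to 50 bases after the annotated start, was available for 3 of the 9 genes, Ass1, Odc1 and Smox, in the RefSeq table of build GRCm38.p6. These 3 are shown as the members with a sequence in that table, and all 3 rose under CRE in both genotypes, as 5 other members did. Capitals mark the E-box CACGTG and the GC box GGGCGG, searched on both strands, so that a GC box on the minus strand reads CCGCCC. No motif match overlapped another.
Ass1, chr2:31470020-31470319, plus strand: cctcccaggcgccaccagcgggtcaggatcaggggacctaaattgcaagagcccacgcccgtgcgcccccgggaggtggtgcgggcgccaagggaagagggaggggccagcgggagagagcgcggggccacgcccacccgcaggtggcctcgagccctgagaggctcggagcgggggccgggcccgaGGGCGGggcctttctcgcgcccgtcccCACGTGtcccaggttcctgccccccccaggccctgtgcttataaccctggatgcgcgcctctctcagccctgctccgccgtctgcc
Odc1, chr12:17544623-17544922, plus strand: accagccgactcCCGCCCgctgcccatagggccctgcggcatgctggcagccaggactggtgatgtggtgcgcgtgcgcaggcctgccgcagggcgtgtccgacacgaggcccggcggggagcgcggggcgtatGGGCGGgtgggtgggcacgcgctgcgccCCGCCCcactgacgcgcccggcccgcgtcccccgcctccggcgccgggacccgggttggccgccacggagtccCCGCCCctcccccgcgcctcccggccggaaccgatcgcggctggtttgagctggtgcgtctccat
Smox, chr2:131491612-131491911, plus strand: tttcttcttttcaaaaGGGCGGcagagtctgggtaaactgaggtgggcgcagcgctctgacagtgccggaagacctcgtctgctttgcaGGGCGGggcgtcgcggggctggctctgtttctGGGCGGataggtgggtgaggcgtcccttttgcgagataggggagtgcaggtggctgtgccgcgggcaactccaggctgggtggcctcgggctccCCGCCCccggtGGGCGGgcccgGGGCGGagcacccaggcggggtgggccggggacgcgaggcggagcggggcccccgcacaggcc

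The Ass1 window held 1 E-box, at position -36 from the start, and 1 GC box at position -63, and 74% of its bases were G or C. The Odc1 window held no E-box and 4 GC boxes, and 78% of its bases were G or C. The Smox window held no E-box and 6 GC boxes, and 71% of its bases were G or C. Of 32851 promoter windows of this length, 7.15% held the E-box, 35.7% held at least 1 GC box, 5.49% held at least 4 and 1.35% held at least 6, and the median share of G and C was 52.7%. A match is a description of the letters and says nothing of binding.

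Totals per library were 16250674 to 21559210 counts, so that a CPM value of 1 (counts scaled to library size) corresponded to 15.9 to 21.7 counts. Library sizes were adjusted with TMM factors, and tests were edgeR quasi-likelihood tests with Benjamini-Hochberg adjustment over the 17473 genes, with calls at an adjusted p below 0.05. Rhoa, the targeted gene, averaged 502 ± 40.0 CPM in CKO_CRE lungs and 525 ± 5.28 CPM in WT_CRE lungs, and 449 ± 45.1 CPM in CKO_PBS lungs and 481 ± 8.88 CPM in WT_PBS lungs (SD, n = 3 each). It was not called in either comparison of the genotypes (adjusted p 0.728 under CRE and 1 under PBS), so in whole lung it does not check the genotype labels. The CKO_CRE libraries stood apart from each other. On principal component 1, which held 64.4% of the variance of log2 CPM, replicates 1, 2 and 3 scored 10.1, 82.6 and 31.2, against 71.6 to 84.7 for WT_CRE libraries and -66.5 to -47.3 for all PBS libraries. On component 2, which held 8.33% and separated the genotypes, CKO_CRE replicate 2 scored -28.8, beside the other two CKO_CRE libraries at -34.0 and -27.0 and apart from WT_CRE libraries at 9.80 to 29.5. The lung label held, with 8 type 2 alveolar markers at a summed 19251 to 29051.5 CPM and 10 club cell markers at 1467 to 6013 CPM per library. Tests and list counts that rest on CKO_CRE are therefore mostly also given without replicate 2. This applies where its removal changes a call or moves a value by more than 1.5 times. Y-linked and Xist counts marked 1 male and 2 female libraries in CKO_CRE, the same in WT_CRE, 2 male and 1 female in CKO_PBS and 3 male in WT_PBS.

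CRE raised 8 of the 9 genes in both genotypes: Slc7a2, Arg1, Arg2, Ass1, Nos2, Odc1, Srm and Smox. Nos3 fell in CKO lungs and was not called in WT lungs. In CKO lungs 20.6% of all tested genes were called higher and 18.5% lower, and in WT lungs 28.6% were called higher and 28.4% lower. The median log2 fold change of the 9 genes was 1.27 in CKO lungs and 1.39 in WT lungs, beside 0.0044 and 0.010 over all tested genes. For 8 of the 9 genes every CRE library lay above every PBS library of the same genotype, in CKO and in WT lungs, a separation upwards that 24.3% of all tested genes showed in CKO lungs and 34.4% in WT lungs. Fewer cells of a type and less RNA per cell cannot be told apart in whole lung.

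**Figure D1:**
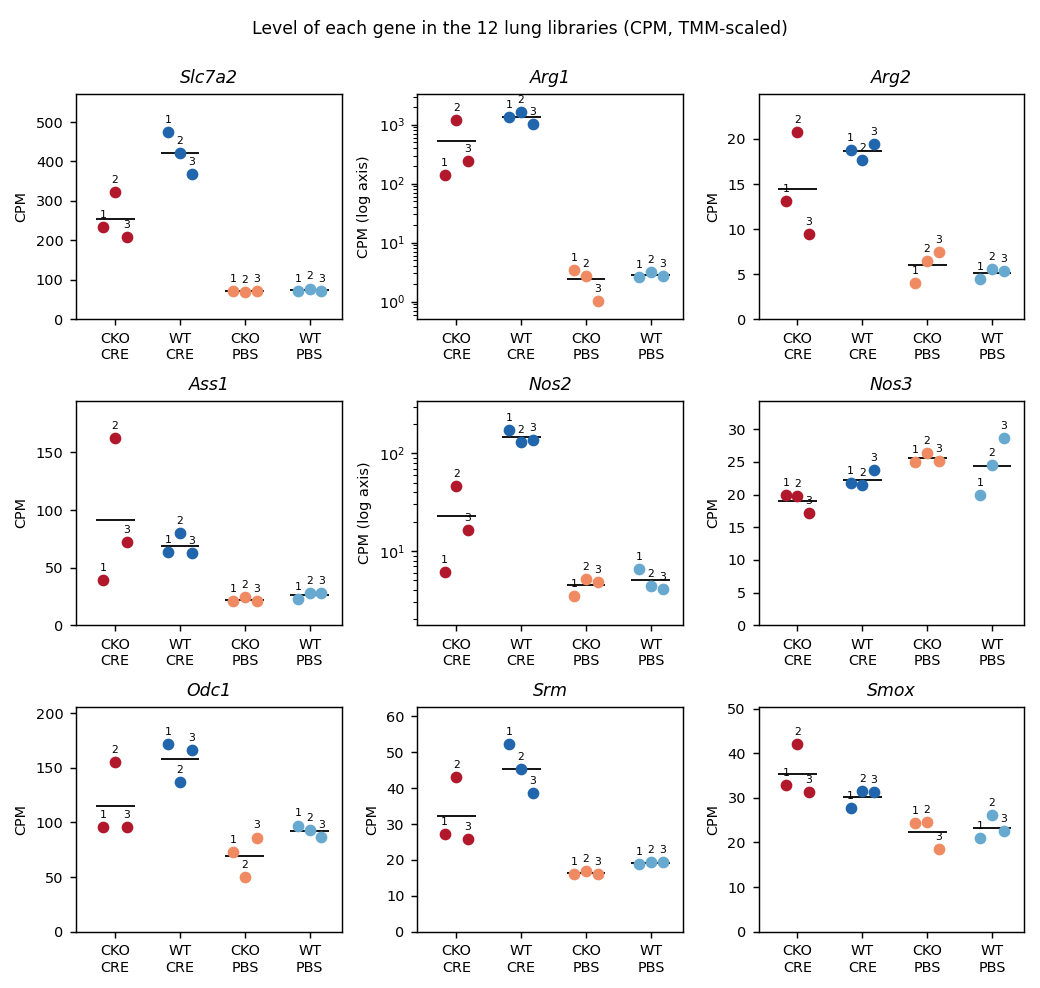
Level of each of the 9 genes in CPM, 1 point per library, labelled with its replicate number, with the group mean as a bar (n = 3); the axes of Arg1 and Nos2 are logarithmic. CRE libraries lie above PBS libraries of the same genotype in every panel but that of Nos3, and CKO_CRE replicate 2 is the highest CKO_CRE library in 8 of the 9 panels.

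Arg1, the cytosolic arginase, was at 140.4, 1185 and 240.5 CPM in CKO_CRE lungs and at 1339.8, 1637 and 1038 CPM in WT_CRE lungs. It was at 3.46, 2.73 and 1.01 CPM in CKO_PBS lungs and at 2.58, 3.12 and 2.71 CPM in WT_PBS lungs, levels that rest on 21 to 67 counts per library. All CRE libraries were far above all PBS libraries. CKO_CRE replicate 2 fell within the WT_CRE range and the other two CKO_CRE libraries fell well below it. The log2 fold change of CRE against PBS was 7.77 ± 0.83 (SE) in CKO lungs (edgeR adjusted p 1.0e-04) and 8.89 ± 0.86 in WT lungs (adjusted p 1.9e-05), which ranked Arg1 number 10 and number 9 among all tested genes by size of rise. As folds these were 218, with a 95% interval of 62.0 to 766, and 476, with an interval of 129 to 1754. Without CKO_CRE replicate 2 the fold in CKO lungs was 79.7.

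Slc7a2, which encodes the cationic amino acid transporter CAT2, was at 234, 323 and 208 CPM in CKO_CRE lungs and at 475, 421 and 368 CPM in WT_CRE lungs. It was at 72.4, 69.7 and 71.6 CPM in CKO_PBS lungs and at 70.6, 77.7 and 71.8 CPM in WT_PBS lungs. Its levels thus fell into 3 steps, with both PBS groups at one level, CKO_CRE above them and WT_CRE above CKO_CRE, with no overlap between the steps. CRE raised it 3.58-fold in CKO lungs (log2 1.84 ± 0.15, adjusted p 1.9e-05) and 5.74-fold in WT lungs (log2 2.52 ± 0.15, adjusted p 1.2e-06). Its spread within the CKO_CRE group was the smallest of the 4 arginine uptake and arginase genes, with the highest library at 1.55 times the lowest, against 8.44 times for Arg1.

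Arg2, the mitochondrial arginase, was at 13.2, 20.8 and 9.47 CPM in CKO_CRE lungs and at 18.7, 17.7 and 19.5 CPM in WT_CRE lungs, against 4.03, 6.47 and 7.50 CPM in CKO_PBS lungs and 4.50, 5.54 and 5.30 CPM in WT_PBS lungs. The CKO_CRE range enclosed all WT_CRE libraries. CRE raised Arg2 2.41-fold in CKO lungs (log2 1.27 ± 0.27, adjusted p 0.0040) and 3.64-fold in WT lungs (log2 1.86 ± 0.28, adjusted p 2.0e-04). Per kilobase of exon, Arg1 made up 92.9 ± 5.17% of the summed arginase level in CKO_CRE lungs and 97.8 ± 0.60% in WT_CRE lungs, against 21.6 ± 13.8% in CKO_PBS lungs and 26.0 ± 1.18% in WT_PBS lungs (SD, n = 3 each). Arg2 was thus the more abundant arginase message under PBS and Arg1 under CRE.

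Ass1, which joins citrulline and aspartate, was at 38.9, 162 and 72.1 CPM in CKO_CRE lungs and at 63.9, 80.4 and 62.9 CPM in WT_CRE lungs. It was at 20.7, 24.9 and 20.8 CPM in CKO_PBS lungs and at 22.8, 28.2 and 28.2 CPM in WT_PBS lungs. Among the 8 genes raised in both genotypes, Ass1 and Smox were the 2 with a higher mean in CKO_CRE than in WT_CRE, and for Ass1 that order came from replicate 2, with a CPM 4.17 times that of replicate 1. CRE raised Ass1 4.11-fold in CKO lungs (log2 2.04 ± 0.38, adjusted p 0.0019) and 2.62-fold in WT lungs (log2 1.39 ± 0.37, adjusted p 0.0075). Without replicate 2 the fold in CKO lungs was 2.51. The pseudogene Gm5424 shares 99.5% of 1240 bases with Ass1 and held 1 to 14 counts per library, so the split of reads between these copies is uncertain. It held at most 1.81% of the counts of Ass1 and that copy together. Adding its counts to Ass1 changed no result of Ass1 in direction or call.

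Nos2, the inducible nitric oxide synthase, was at 6.13, 46.0 and 16.4 CPM in CKO_CRE lungs and at 174, 129.8 and 138 CPM in WT_CRE lungs. It was at 3.46, 5.13 and 4.80 CPM in CKO_PBS lungs and at 6.62, 4.38 and 4.13 CPM in WT_PBS lungs. The highest CKO_CRE library was at less than the lowest WT_CRE library, while the lowest CKO_CRE library lay above all CKO_PBS libraries but below WT_PBS replicate 1. CRE raised Nos2 5.10-fold in CKO lungs (log2 2.35 ± 0.54, adjusted p 0.0058) and 29.1-fold in WT lungs (log2 4.86 ± 0.57, adjusted p 5.0e-05). Without CKO_CRE replicate 2 the fold in CKO lungs was 2.52 (adjusted p 0.012).

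Nos3, the endothelial nitric oxide synthase, was at 19.9, 19.8 and 17.2 CPM in CKO_CRE lungs and at 21.7, 21.5 and 23.7 CPM in WT_CRE lungs, against 25.0, 26.4 and 25.1 CPM in CKO_PBS lungs and 20.0, 24.5 and 28.6 CPM in WT_PBS lungs. All CKO_CRE libraries lay below all CKO_PBS libraries, whereas the WT_PBS range enclosed the WT_CRE libraries. Nos3 fell by 0.43 ± 0.13 on the log2 scale under CRE in CKO lungs (adjusted p 0.019), and its log2 fold change in WT lungs was -0.13 ± 0.13 (adjusted p 0.406). The call in CKO lungs was lost without CKO_CRE replicate 3 (adjusted p 0.064) and without CKO_PBS replicate 2 (adjusted p 0.054). The difference between the genotypes was -0.30 ± 0.18 (adjusted p 0.556). Of 14 endothelial markers, 9 fell under CRE in CKO lungs and 12 in WT lungs, and none was at 0 in any library. Of all tested genes, 18.5% were called lower in CKO lungs and 28.4% in WT lungs. In CKO lungs 9 markers fell and 1 rose when CKO_CRE replicate 2 was left out, where 14.2% of all genes fell and 15.7% rose. Their summed level was 3637 to 5551 CPM in CKO_CRE lungs and 3777 to 4188 CPM in WT_CRE lungs, against 5836 to 6990.3 CPM in CKO_PBS lungs and 6361 to 6603 CPM in WT_PBS lungs. The part of these markers in the Nos3 result was not tested.

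Odc1, which makes putrescine from ornithine, was at 95.7, 155 and 95.3 CPM in CKO_CRE lungs and at 171, 137 and 166 CPM in WT_CRE lungs. It was at 72.4, 49.97 and 86.1 CPM in CKO_PBS lungs and at 97.1, 92.6 and 86.9 CPM in WT_PBS lungs. Replicates 1 and 3 of CKO_CRE lay within the range of WT_PBS libraries, and above all CKO_PBS libraries. CRE raised Odc1 1.66-fold in CKO lungs (log2 0.73 ± 0.21, adjusted p 0.017) and 1.71-fold in WT lungs (log2 0.78 ± 0.21, adjusted p 0.0077). The call in CKO lungs was lost without CKO_CRE replicate 2 (adjusted p 0.063) and without CKO_PBS replicate 2 (adjusted p 0.060). Odc1 has 18 annotated copies of at least 90% identity among other annotated genes, the closest at 97.8%. The copy Gm7993, at 95.7% identity, held up to 28.2% of the counts of Odc1 and that copy together. In CKO_PBS replicate 2, the library with the lowest Odc1 level, it held 425 counts beside 1082 for Odc1, so the split of reads between them is uncertain.

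Srm was at 27.3, 43.2 and 25.9 CPM in CKO_CRE lungs and at 52.2, 45.5 and 38.7 CPM in WT_CRE lungs, against 16.2, 17.0 and 16.1 CPM in CKO_PBS lungs and 18.9, 19.4 and 19.3 CPM in WT_PBS lungs. CRE libraries were above PBS libraries throughout, and CKO_PBS libraries lay below WT_PBS libraries by a small, non-overlapping margin. CRE raised Srm 1.96-fold in CKO lungs (log2 0.97 ± 0.18, adjusted p 0.0017) and 2.36-fold in WT lungs (log2 1.24 ± 0.17, adjusted p 1.5e-04).

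Smox was at 32.9, 42.0 and 31.3 CPM in CKO_CRE lungs and at 27.7, 31.6 and 31.2 CPM in WT_CRE lungs, against 24.3, 24.6 and 18.4 CPM in CKO_PBS lungs and 21.02, 26.2 and 22.6 CPM in WT_PBS lungs. This was the smallest rise of the 8 raised genes in either genotype, at 1.58-fold in CKO lungs (log2 0.66 ± 0.14, adjusted p 0.0046) and 1.30-fold in WT lungs (log2 0.38 ± 0.15, adjusted p 0.043). The call in WT lungs was lost without WT_CRE replicate 2 or 3, CKO_PBS replicate 1 or WT_PBS replicate 1 or 3 (adjusted p 0.052 to 0.149), and with sex as a covariate (adjusted p 0.212). Per kilobase of exon, the ratio of Odc1 to Smox was 3.68 ± 0.48 in CKO_CRE lungs and 6.03 ± 1.07 in WT_CRE lungs, without overlap, and 3.69 ± 1.53 in CKO_PBS lungs and 4.58 ± 0.64 in WT_PBS lungs, with overlap (SD, n = 3 each). Under CRE the mean of Odc1 was lower and that of Smox higher in CKO lungs, and neither gene was called between the genotypes. The ratio is given without a test. Without CKO_CRE replicate 2 the folds of CRE against PBS in CKO lungs were 3.10 for Slc7a2, 1.88 for Arg2, 1.38 for Odc1, 1.62 for Srm and 1.43 for Smox, of which that of Odc1 was not called.

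Ranked by mean CPM per kilobase of exon within each group, Odc1 was first in both PBS groups and Nos2, which overlapped Arg1, was last, at 20.4 and 1.01 in CKO_PBS lungs and at 27.1 and 1.14 in WT_PBS lungs. Under CRE, Arg1 was first, at 234 CPM per kilobase in CKO_CRE lungs and 601 in WT_CRE lungs, and Nos3 was last, at 4.59 and 5.39. The libraries of neighbours in that order overlapped at all steps but the one between Srm and Arg2 in CKO_CRE lungs. In WT_CRE lungs Arg1, Arg2, Smox and Nos3 did not overlap the neighbours in the order, whereas Odc1 overlapped Slc7a2, and Nos2 overlapped Ass1, which overlapped Srm. In WT_CRE lungs Nos2 was number 4 in this order, at 33.4 CPM per kilobase, whereas in CKO_CRE lungs it was number 8, at 5.18.

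The comparison of genotypes under CRE asked whether deletion of Rhoa in Cc10-expressing cells went with a different response of these genes. Slc7a2 and Nos2 were called lower in CKO_CRE than in WT_CRE lungs, 2 of the 9 genes, where 0.366% of all tested genes were called lower. No member was called higher. Nos2 averaged 22.9 ± 20.7 CPM in CKO_CRE lungs and 147 ± 23.4 CPM in WT_CRE lungs (SD, n = 3 each), 6.43-fold lower (log2 -2.69 ± 0.50, edgeR adjusted p 0.032), which ranked it number 47 from the bottom among all tested genes. Slc7a2 averaged 255 ± 60.5 CPM in CKO_CRE lungs and 421 ± 53.9 CPM in WT_CRE lungs, 1.65-fold lower (log2 -0.72 ± 0.15, adjusted p 0.041). For 3 of the 9 genes, Slc7a2, Nos2 and Nos3, all CKO_CRE libraries lay below all WT_CRE libraries, as they did for 7.69% of all tested genes. The log2 difference of Nos3 was -0.23 ± 0.13 (adjusted p 0.334).

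Both calls stood near the threshold. The Nos2 call was lost when CKO_CRE replicate 3, CKO_PBS replicate 3 or any 1 of the WT_CRE or WT_PBS libraries was left out (adjusted p 0.052 to 0.133), and when only the 6 CRE libraries were fitted (adjusted p 0.258). It was kept without CKO_CRE replicate 1 or 2 and without CKO_PBS replicate 1 or 2, and its log2 difference ran from -3.70 to -2.23 over the 12 fits that each left out 1 library. The Slc7a2 call was lost in 11 of these 12 fits (adjusted p 0.062 to 0.189) and was kept without CKO_CRE replicate 2, and it was also lost with sex as a covariate (adjusted p 0.052) and with only the 6 CRE libraries (adjusted p 0.311). Within sex, Nos2 was at 6.13 CPM in the male CKO_CRE library and at 174 CPM in the male WT_CRE library, and at 46.0 and 16.4 CPM in the female CKO_CRE libraries and at 129.8 and 138 CPM in the female WT_CRE libraries. Slc7a2 was at 234 CPM in the male CKO_CRE library and 475 CPM in the male WT_CRE library, and at 323 and 208 CPM in the female CKO_CRE libraries and 421 and 368 CPM in the female WT_CRE libraries.

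The other members were not called between the genotypes under CRE. Arg1 averaged 522 ± 576 CPM in CKO_CRE lungs and 1338 ± 299 CPM in WT_CRE lungs (SD, n = 3 each), with a log2 difference of -1.36 ± 0.60 (adjusted p 0.258; unadjusted p 0.044), and its 95% interval ran from -2.67 to -0.04. Srm differed by -0.50 ± 0.17 (adjusted p 0.174), Odc1 by -0.45 ± 0.21 (adjusted p 0.271) and Arg2 by -0.36 ± 0.26 (adjusted p 0.459). Ass1 differed by 0.40 ± 0.36 (adjusted p 0.556) and Smox by 0.23 ± 0.14 (adjusted p 0.395).

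CKO_CRE replicate 2 decided most of these values. It was the highest CKO_CRE library for 8 of the 9 genes, all but Nos3. Without it, 6 of the 9 genes were called lower in CKO_CRE lungs, where 12.7% of all genes tested in that fit were called lower: Slc7a2 (log2 -0.93), Arg1 (-2.81), Arg2 (-0.72), Nos2 (-3.70), Odc1 (-0.72) and Srm (-0.77). In that fit the adjusted p was 1.5e-04 for Slc7a2 and Arg1, 4.4e-05 for Nos2, 7.3e-04 for Srm, 0.010 for Odc1 and 0.031 for Arg2, and Arg1 was 7.01-fold and Nos2 13.0-fold lower. Ass1 turned to -0.31 ± 0.21 and was not called (adjusted p 0.294), and Smox stood at 0.09 ± 0.13 (adjusted p 0.643). The same fit called 5112 of all tested genes, 2829 higher and 2283 lower, against 160 with all libraries, so the larger number of members called went with a larger number over all genes. Replicate 2 was singled out from these same data, for its likeness to WT_CRE libraries on the largest principal component. Its removal therefore favours a larger difference between the genotypes and a smaller spread, with 2 CKO_CRE libraries left.

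**Figure D2:**
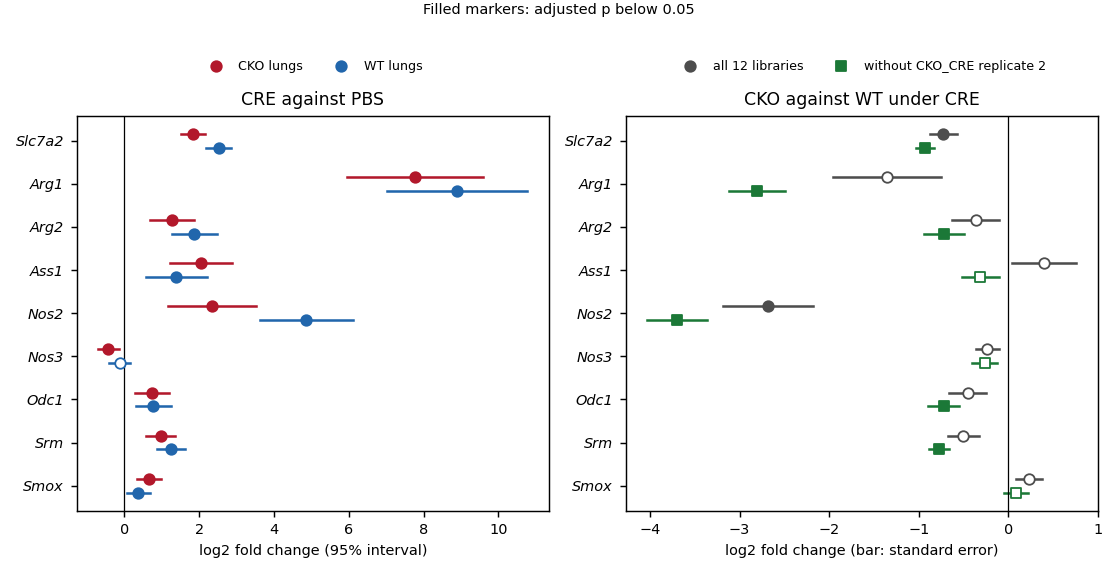
Log2 fold changes of the 9 genes: left, CRE against PBS in CKO lungs (red) and WT lungs (blue) with 95% intervals; right, CKO against WT under CRE with all 12 libraries (grey circles) and without CKO_CRE replicate 2 (green squares) with standard errors. Filled markers have an adjusted p below 0.05: 9 and 8 genes on the left, 2 and 6 genes on the right.

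Marker genes of several cell types moved with the CKO_CRE libraries. The summed level of 12 macrophage markers was 1607, 2932 and 2042 CPM in CKO_CRE replicates 1, 2 and 3 and 2535 to 2808 CPM in WT_CRE lungs, against 601 to 700.0 CPM in CKO_PBS lungs and 576 to 690.0 CPM in WT_PBS lungs. Of these 12 markers, 11 rose and 1 fell under CRE in CKO lungs, 10 rose and 1 fell in WT lungs, and none was at 0 in any library. Of all tested genes 20.6% rose and 18.5% fell in CKO lungs, and 28.6% and 28.4% in WT lungs. Without CKO_CRE replicate 2, 11 of the 12 rose and 0 fell in CKO lungs. Between the genotypes under CRE, 1 of the 12 was called higher and 0 lower with all libraries. Without that replicate 1 was called higher and 6 lower. The summed level of 12 cycling-cell markers was 566, 990.2 and 641 CPM in CKO_CRE replicates 1, 2 and 3 and 852 to 944 CPM in WT_CRE lungs. It was 192 to 248 CPM in CKO_PBS lungs and 199 to 265 CPM in WT_PBS lungs. For Arg1, Nos2, Arg2, Ass1, Slc7a2, Odc1, Srm and Smox, replicate 2 was likewise the highest of the 3 CKO_CRE libraries. Group 2 innate lymphoid cells, which can express Arg1 in mouse lung, were followed by 7 markers. Il1rl1 and Il13 were called lower in CKO_CRE than in WT_CRE lungs (log2 -1.31 ± 0.25 and -2.07 ± 0.38, adjusted p 0.032 and 0.028). The other 5 were not called, where 0.366% of all tested genes were called lower. Among these 5, Rora was at 51.2, 27.7 and 51.2 CPM in CKO_CRE lungs and at 33.2, 26.8 and 40.9 CPM in WT_CRE lungs. The summed level of the 7 markers was 95.6, 77.5 and 93.1 CPM in CKO_CRE replicates 1, 2 and 3. It was 119.9 to 125.4 CPM in WT_CRE lungs. Unlike for Arg1, replicate 2 was the lowest CKO_CRE library in this sum. Without CKO_CRE replicate 2, 1 of the 7 was called higher and 3 lower, where 15.8% and 12.7% of all genes were. Il13 was at 0 in CKO_PBS replicates 1 and 3. Of 9 tested neutrophil markers, 1 rose under CRE in CKO lungs and 7 in WT lungs, and Ly6g was at 0 in CKO_CRE replicate 3. All 10 listed neutrophil markers summed to 221, 402 and 115 CPM in CKO_PBS lungs, already above the 73.1 to 108 CPM in WT_PBS lungs. Under CRE the sums were 155 to 465 CPM in CKO lungs and 287 to 477 CPM in WT lungs. Between the genotypes 0 of the 9 were called under CRE or PBS. Without CKO_CRE replicate 2, 2 of 10 tested were called lower under CRE. The part of these markers in the results for the 9 genes was not tested.

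**Figure D3:**
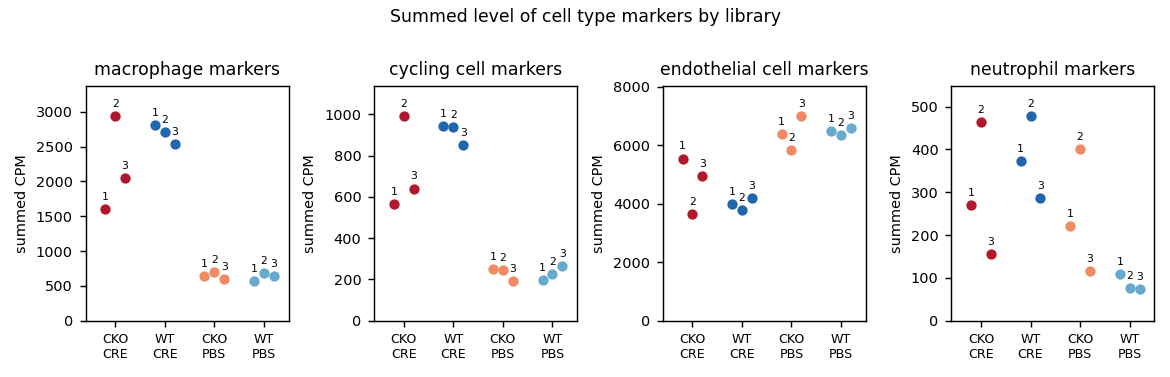
Summed CPM of macrophage, cycling-cell, endothelial and neutrophil markers, 1 point per library, labelled with its replicate number, in the 4 groups. In the macrophage and cycling-cell panels CKO_CRE replicate 2 (2932 and 990.2 CPM) lies above all WT_CRE libraries, and replicates 1 and 3 lie between WT_CRE and the PBS groups.

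Arg1 and Nos2, which draw on the same substrate, did not keep the same proportion in the genotypes under CRE. Per kilobase of exon, the ratio of Arg1 to Nos2 was 45.4, 51.0 and 29.0 in CKO_CRE lungs and 15.3, 25.0 and 14.9 in WT_CRE lungs, against 1.98, 1.05 and 0.416 in CKO_PBS lungs and 0.771, 1.41 and 1.30 in WT_PBS lungs. All CKO_CRE libraries, replicate 2 included, lay above all WT_CRE libraries in this ratio, and the PBS groups overlapped. The ratio was set up with the levels known and is given without a test. Nos2 made up 22.3%, 68.5% and 47.2% of the summed Nos2 and Nos3 level per length in CKO_CRE lungs and 88.2%, 85.0% and 84.5% in WT_CRE lungs. Under PBS it made up 14.0 ± 2.20% in CKO_PBS lungs and 16.6 ± 6.23% in WT_PBS lungs (SD, n = 3 each). Nos3 was thus the more abundant of these synthase messages in 2 of 3 CKO_CRE libraries and in none of the WT_CRE libraries.

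**Figure D4:**
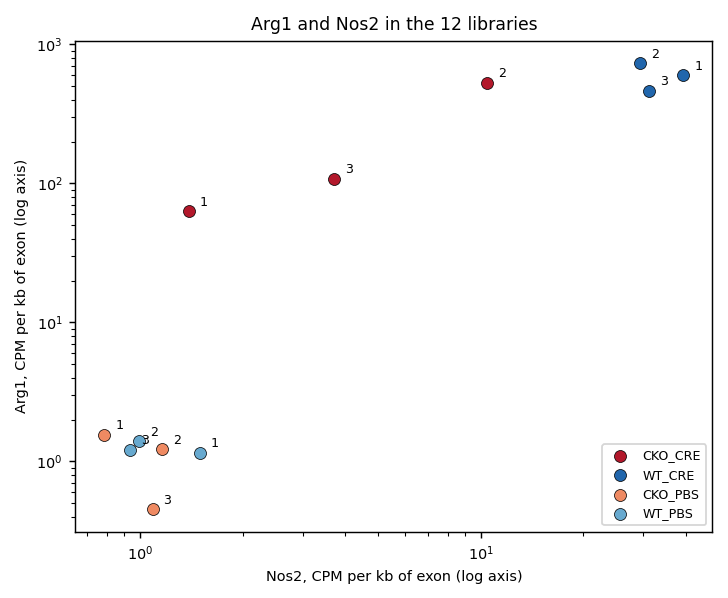
Arg1 against Nos2 in CPM per kilobase of exon, both axes logarithmic, 1 point per library, labelled with its replicate number, coloured by group. The WT_CRE libraries sit at the upper right, the CKO_CRE libraries spread to lower Nos2 with ratios of Arg1 to Nos2 of 29.0 to 51.0, against 14.9 to 25.0 in WT_CRE lungs, and the PBS libraries lie together at the lower left.

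Whether CRE acted differently on these genes in CKO and WT lungs was tested directly as an interaction. None of the 9 genes was called, where 0.0458% of all tested genes were called in either direction. Of the 9, 2 had an unadjusted p below 0.05, Nos2 and Slc7a2, as did 1801 of all 17473 tested genes. The CRE response of Nos2 was lower in CKO than in WT lungs by a log2 difference of -2.51 ± 0.75 (edgeR adjusted p 0.369; unadjusted p 0.0059), and that of Slc7a2 by -0.68 ± 0.21 (adjusted p 0.381; unadjusted p 0.0064). For Arg1 the difference was -1.13 ± 1.00 (adjusted p 0.675), with a 95% interval from -3.31 to 1.05. Without CKO_CRE replicate 2, 4 of the 9 genes were called with a smaller response in CKO lungs: Nos2 (-3.52, adjusted p 0.0012), Slc7a2 (-0.88, adjusted p 0.0027), Arg1 (-2.57, adjusted p 0.0073) and Srm (-0.54, adjusted p 0.035). In that fit 2660 of all tested genes were called, against 8 with all libraries. As above, the library left out was singled out from these same data, which favours a larger difference. With limma-voom and library quality weights, 4 of the 9 genes and 4371 of all genes were called, and with no filter on low counts Nos2 was called (adjusted p 0.034).

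Under PBS the genotypes differed in none of the 9 genes by this test (adjusted p 1 for each, and no unadjusted p below 0.05), where 0.109% of all tested genes were called in either direction. DESeq2 and limma-voom also called none of the 9 there. Over all 17473 tested genes, 930 had an unadjusted edgeR p below 0.05 under PBS. The largest log2 difference was that of Odc1, at -0.41 ± 0.21 (unadjusted p 0.076), with 69.5 ± 18.3 CPM in CKO_PBS lungs and 92.2 ± 5.14 CPM in WT_PBS lungs (SD, n = 3 each). Over the alternative fits it ran from -0.59 to -0.22. Its copy Gm7993 held 161, 425 and 2 counts in CKO_PBS lungs and 0, 1 and 2 counts in WT_PBS lungs. The size of the Odc1 difference thus depends on how reads were split between them. Srm differed by -0.23 ± 0.18, with 16.4 ± 0.50 CPM in CKO_PBS lungs and 19.2 ± 0.29 CPM in WT_PBS lungs. For Odc1 and Srm, 2 of the 9 genes, all CKO_PBS libraries lay below all WT_PBS libraries, as they did for 7.53% of all tested genes. The 95% interval of the Arg1 difference ran from -1.98 to 1.52.

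In the order of the 4 group means, WT_CRE was highest for Slc7a2, Arg1, Arg2, Nos2, Odc1 and Srm, CKO_CRE for Ass1 and Smox, and CKO_PBS for Nos3. WT_CRE and CKO_CRE did not overlap for Slc7a2, Nos2 and Nos3. CKO_CRE overlapped WT_PBS for Nos2 and Odc1, and the PBS groups overlapped for all members but Odc1 and Srm.

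The genes whose pattern over the 12 libraries was most like each member, by the root mean square difference of centred log2 CPM among 13184 candidates, differed from member to member. For Arg1 they were Ccl24, Ccl8 and Mmp12, at 0.898, 0.927 and 1.07, where Arg1 itself spanned 10.5 log2 units. For Slc7a2 they were Rab3il1, Tfec and Cenps, at 0.166, 0.177 and 0.196 within a span of 2.77. For Nos2 they were Mcpt1, Ceacam19 and Serpina11, at 0.462, 0.623 and 0.631 within a span of 5.61. For Ass1 they were Bcl2a1a, Marcksl1 and Pycard, at 0.213, 0.229 and 0.248 within a span of 2.96. The nearest to Arg2 were Pole2, Manf and Creld2 (0.189 to 0.204), the nearest to Srm were Ciao2a, Abracl and Sec61b (0.103 to 0.116), and the nearest to Odc1 were Mtmr7, Plxna4os1 and Exosc9 (0.151 to 0.177). The nearest to Smox were Ubtd1, Gipc1 and Tnfaip2 (0.119 to 0.128), and the nearest to Nos3 were Btbd1, Esf1 and Ryk (0.107 to 0.117).

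Other genes of these pathways were taken from lists, whose counts stand beside the 20.6% of all tested genes called higher and 18.5% called lower in CKO lungs and the 28.6% and 28.4% in WT lungs. Without CKO_CRE replicate 2 the shares of all genes in CKO lungs were 15.7% and 14.2%. Of 12 tested genes of arginine supply and the urea cycle, 4 rose in CKO lungs under CRE, and 6 rose and 2 fell in WT lungs, with median log2 fold changes of 0.20 and 0.35. In CKO lungs 3 rose when CKO_CRE replicate 2 was left out. Gatm, which transfers the amidino group of arginine to glycine in creatine synthesis, was at 51.0, 365 and 88.2 CPM in CKO_CRE lungs and at 224, 269 and 131 CPM in WT_CRE lungs, against 6.51, 9.88 and 25.2 CPM in CKO_PBS lungs and 5.61, 7.40 and 6.66 CPM in WT_PBS lungs. As for Arg1, CKO_CRE replicate 2 was the highest of its group. Gatm rose by a log2 fold change of 3.60 ± 0.69 in CKO lungs (adjusted p 0.0023) and 4.99 ± 0.75 in WT lungs (adjusted p 2.3e-04). Its fold in CKO lungs was 5.01 without CKO_CRE replicate 2, against 12.1 with all libraries, and it was called in both fits (without that library log2 2.33 ± 0.44, adjusted p 0.0021). Gamt, which completes creatine synthesis, and Slc7a7, a transporter of cationic amino acids, rose in CKO lungs by 0.59 ± 0.19 and 0.57 ± 0.14, and the call of Gamt was lost without CKO_CRE replicate 2 (adjusted p 0.116). Nags, which makes the activator of the urea cycle, rose by 3.55 ± 0.89 in WT lungs, with 2.18 ± 0.80 CPM in WT_CRE lungs and 0.19 ± 0.15 CPM in WT_PBS lungs.

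Of 10 genes of ornithine and proline metabolism, 5 rose and 1 fell in CKO lungs, and 6 rose and 2 fell in WT lungs, with medians of 0.25 and 0.44. When CKO_CRE replicate 2 was left out, 4 rose and 1 fell in CKO lungs, with a median of 0.15. Aldh18a1 and Pycr1, which lead to proline, rose by log2 1.07 ± 0.11 and 1.02 ± 0.16 in CKO lungs and by 1.49 ± 0.11 and 1.85 ± 0.16 in WT lungs. The collagen prolyl hydroxylase subunit P4ha3 rose by 0.94 ± 0.25 in CKO lungs and 1.12 ± 0.25 in WT lungs, whereas P4ha2, another such subunit, fell by 0.41 ± 0.10 and 0.49 ± 0.10. Of 16 other polyamine genes, 4 rose in CKO lungs, and 9 rose and 2 fell in WT lungs, with medians of 0.19 and 0.28. The 4 of 16 in CKO lungs, also 4 without CKO_CRE replicate 2, is near the share of all genes called higher there. Paox and Sat1, which oxidise and acetylate polyamines, rose by 0.76 ± 0.20 and 0.57 ± 0.15 in CKO lungs and by 1.00 ± 0.20 and 0.81 ± 0.15 in WT lungs. Eif5a, the translation factor that carries the spermidine-derived residue hypusine, rose by 0.72 ± 0.16 in CKO lungs and 0.96 ± 0.16 in WT lungs. Without CKO_CRE replicate 2 the rises in CKO lungs were smaller, at 0.34 ± 0.09 for Sat1 and 0.47 ± 0.09 for Eif5a, and both were still called. Atp13a3, a polyamine transporter, fell by 0.79 ± 0.20 in WT lungs.

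Of 15 tested genes for cofactors and control of nitric oxide synthases, 3 rose and 3 fell in CKO lungs, and 5 rose and 4 fell in WT lungs, with medians of -0.03 and 0.04. In CKO lungs 3 rose and 2 fell without CKO_CRE replicate 2. Gch1, the first enzyme of tetrahydrobiopterin synthesis, rose by 0.54 ± 0.14 in CKO lungs and 0.69 ± 0.14 in WT lungs. Cav1 and Nostrin, both known as binding partners of Nos3, fell by 0.83 ± 0.14 and 0.91 ± 0.10 in CKO lungs and by 1.31 ± 0.14 and 0.90 ± 0.10 in WT lungs. All 6 listed targets of nitric oxide signalling fell under CRE in both genotypes, with medians of -1.09 in CKO lungs and -1.89 in WT lungs, where 18.5% and 28.4% of all tested genes were called lower. All 6 also fell in CKO lungs without CKO_CRE replicate 2, with a median of -0.81. They were the guanylate cyclase subunits Gucy1a1, Gucy1a2 and Gucy1b1, the protein kinases Prkg1 and Prkg2, and Pde5a, the cyclic GMP phosphodiesterase. Pde5a was at 213, 95.7 and 203 CPM in CKO_CRE lungs and at 126, 104 and 141 CPM in WT_CRE lungs, against 372, 343 and 396 CPM in CKO_PBS lungs and 418, 385 and 388 CPM in WT_PBS lungs. Here too CKO_CRE replicate 2 stood with the WT_CRE libraries, below the other two of its group. The endothelial marker sums above fell in the same libraries, and their part in this result was not tested.

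**Figure D5:**
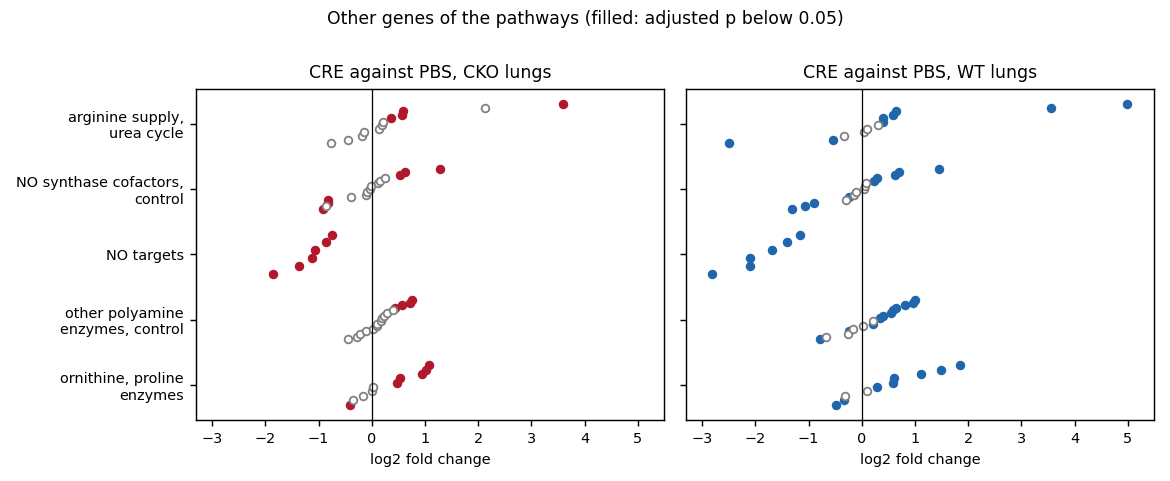
Log2 fold changes of the tested genes in 5 lists of arginine, nitric oxide and polyamine metabolism, CRE against PBS, in CKO lungs (left, red) and WT lungs (right, blue), 1 point per gene; filled points have an adjusted p below 0.05. All 6 genes of the nitric oxide target list lie left of 0, and the largest rise is that of Gatm in both panels.

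Between the genotypes under CRE, the one gene of these 5 lists that was called with all libraries was Pts, another enzyme of tetrahydrobiopterin synthesis. It averaged 23.0 ± 0.94 CPM in CKO_CRE lungs and 32.8 ± 0.76 CPM in WT_CRE lungs (SD, n = 3 each), a log2 difference of -0.51 ± 0.08 (adjusted p 0.012). Under PBS it averaged 23.4 CPM in CKO_PBS lungs and 31.3 CPM in WT_PBS lungs, with a log2 difference of -0.42 ± 0.08 (adjusted p 0.091). Pts lies on chromosome 9, as Rhoa does. With CKO_CRE replicate 2 left out, 15.8% of all genes were called higher and 12.7% lower in CKO_CRE than in WT_CRE lungs. In that fit the lists held 4 lower genes of arginine supply, 1 higher and 3 lower of the synthase cofactors, 3 higher and 6 lower of the other polyamine genes, and 1 higher and 2 lower of ornithine and proline metabolism. All 6 nitric oxide targets were called higher in that fit, with a median of 1.01, as were 10 of 14 endothelial markers, and the part of those markers was not tested.

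On build mm10, Ass1 and Smox are on chromosome 2 (31470207 to 31520672 and 131491496 to 131525922, both plus strand) and Odc1 and Arg2 on chromosome 12 (17544794 to 17551505 and 79130777 to 79156301, both plus strand). Arg1 is on the minus strand of chromosome 10 (24915221 to 24927484). The other four are on plus strands: Slc7a2 on chromosome 8 (40862396 to 40922308), Nos2 on chromosome 11 (78920787 to 78960254), Nos3 on chromosome 5 (24364810 to 24384474) and Srm on chromosome 4 (148591503 to 148594993). Exons of Slc7a2 overlap Gm26584 over 635 bases, those of Arg2 overlap Gm48780 and Vti1b over 401 bases, and those of Nos3 overlap Gm15587 and Atg9b over 1334 bases, all on the opposite strand. Reads from these overlaps cannot be told apart if strand was not used in counting.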

How the data were processed

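Whole-lung poly(A) RNA libraries were deposited as 1 table of read counts per Ensembl gene. The authors used fastp, STAR and build mm10, as listed in the submitters' processing notes. How reads were assigned to genes, including annotation and strand, is not stated there or in the labels. The 9 genes, the other lists and the naming rule were chosen with earlier results of these data known.

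From these counts a mean per group was fitted over all 12 libraries with edgeR 4.0.16 under R 4.3.3, after TMM scaling and filterByExpr. The quasi-likelihood F test was adjusted by the Benjamini-Hochberg method over 17473 genes, with calls at an adjusted p below 0.05. Adjusted p-values given with no tool name come from it. The biological coefficient of variation was 17.4%. Symbols and exon lengths came from GENCODE M21, which matched 54409 of 54532 identifiers. The other 123 held at most 0.0417% of the counts of a library and were fitted too. Library totals of 16250674 to 21559210 counts set the precision of low genes. Fold changes are on the log2 scale ± SE, and CPM per kilobase of exon was used to compare genes. Exon length covered all annotated exons of a gene, so levels compared between genes depend on the annotation.

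Besides the 9 genes, up to 3 rising and 3 falling called genes of each pathway list with a mean of at least 1 CPM were eligible to be named, of which a part is described, as were the 3 genes nearest to each member, leaving out predicted symbols, pseudogenes, ribosomal protein, sex-linked and antigen receptor genes. Gatm, Pde5a and Rora are given by library, and Il1rl1 and Il13 are named, as choices made after their values were seen. Copies were searched with blastn 2.17.0. Alternatives were DESeq2 size factors, the DESeq2 1.42.0 Wald test, limma-voom (limma 3.58.1) weighted by library quality, a fit without a low-count filter, a replicate block, sex as a covariate, only the 6 libraries compared, and each library left out in turn. List counts without CKO_CRE replicate 2 were added after seeing the data. The tests were also run on simulated counts with a small set of changed genes and no library set apart as CKO_CRE replicate 2 is. That setting differs from these data, so no conclusion is drawn from it.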

Additional observations from a re-analysis of the deposited data

Results flagged for a closer look

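One signal lay outside the genes compared. Gm7993, a processed pseudogene that resembles Odc1, held up to 426 counts in a library. It had 158, 426 and 190 counts in CKO_CRE lungs and 1, 397 and 9 counts in WT_CRE lungs, against 161, 425 and 2 counts in CKO_PBS lungs and 0, 1 and 2 counts in WT_PBS lungs. Counts above 150 were found in 5 of 6 CKO libraries and 1 of 6 WT libraries, under CRE and under PBS, and the other libraries held 9 or fewer. The difference between the genotypes was not tested. Odc1 itself held 1082 to 3106 counts per library. Adding the counts of all copies of at least 90% identity to Odc1 changed none of its 5 results in direction or call. This does not show that the sizes of its differences stayed the same.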

How the results depend on the processing

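Over the other tools, filters and covariates and the additions of copy counts, which were chosen after seeing the data, 382 of the gene results kept direction and call, 5 lost a call, 9 gained one and 0 reversed. CRE against PBS in CKO lungs called 3812 genes when only the 6 libraries compared were fitted, against 6830. CKO against WT under CRE called 6 members and 7645 genes with limma-voom, 838 genes with DESeq2, 691 genes with no low-count filter, 1 member with sex as a covariate, and 0 members and 29 genes with only the 6 libraries compared, against 2 members and 160 genes. CKO against WT under PBS called 114 genes with DESeq2, 146 with limma-voom, 89 with no filter and 74 with only 6 libraries, against 19. The interaction called 4 members and 4371 genes with limma-voom, 128 genes with DESeq2, 1 member and 81 genes with no filter, 2 genes with sex as a covariate and 0 genes with the replicate block, against 0 members and 8 genes. The cause was not tested.

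With single libraries left out, 5112 genes at most and 38 at least were called in CKO against WT under CRE, with 0 to 6 members, and 0 to 2660 genes with 0 to 4 members in the interaction. The highest counts of each came without CKO_CRE replicate 2. CKO against WT under PBS gave 12 to 53 genes. CRE against PBS called 7 to 9 members in CKO lungs and 7 to 8 in WT lungs. In CKO against WT under CRE Ass1 ran from -0.31 to 0.77 on the log2 scale. Under PBS Arg1 ran from -0.58 to 0.14, Nos2 from -0.30 to 0.072, Nos3 from -0.057 to 0.20 and Smox from -0.12 to 0.075. In the interaction Ass1 ran from -0.058 to 1.02 and Odc1 from -0.31 to 0.14. Arg1 rested on 21 to 67 counts in each PBS library.

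Correlations between libraries did not settle whether replicate numbers pair the samples. Same-numbered libraries had correlations of -0.033 to 0.176 in their deviations from the group means, over 0.1 in 4 of 18 pairs, and 8 of 12 libraries correlated best with their own number. The replicate block changed no call of the 9 genes, with Nos2 at a log2 difference of -2.88 and Slc7a2 at -0.73 between the genotypes under CRE.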
